A study of Mus musculus with 21 samples.

Results

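Antioxidant defence genes encode the enzymes that remove superoxide and peroxides, the proteins that keep glutathione and thioredoxin in their reduced, working form, and the transcription factor that switches many of these genes on. The list held 8 mouse genes chosen by symbol: Nfe2l2, Gclm, Srxn1, Txnrd1, Sod2, Sod3, Gpx3 and Prdx6. Of these 7 were measured, each by 1 array feature annotated with that symbol alone, among 16248 genes measured in all. Prdx6 had no such feature and was not analysed here. The members and the lists below were chosen with earlier results of these data known. Their counts beside shares of all genes are therefore descriptions.

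The protein NRF2, made from Nfe2l2, is normally bound by KEAP1 in the cytoplasm and marked for destruction. Oxidants and reactive chemicals modify KEAP1, and NRF2 then accumulates, pairs with small Maf proteins in the nucleus and binds antioxidant response elements upstream of target genes such as Gclm, Srxn1 and Txnrd1. Because this control acts on the protein, the Nfe2l2 transcript level is not a measure of NRF2 activity. In fat, adipocytes take up and store lipid and resident and recruited macrophages clear dying cells, and both cell types express antioxidant enzymes.

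RNA of whole epididymal fat, a visceral depot next to the testis, was profiled on GeneChip whole-transcript arrays. The mice were male C57BL/6J, arrived at an age of 4 weeks, were acclimated for 1 week and then kept on their diets for 12 weeks. Each of 7 groups had 3 arrays, 21 in all. The normal diet of ND supplied 10% of its calories as fat, and the high-fat diet of HFD supplied 40%. The remaining groups are labelled as high-fat diet with a supplement: BC with Bacillus coagulans, a probiotic bacterium that forms spores, at 0.3% by weight, SMG with 0.3% steamed grain, L_FMG with 0.3% fermented mixed grain and H_FMG with 0.9% fermented mixed grain. What RMG received, and how much, is not described in the labels, so its values are given under that code. The comparisons ask how the high-fat diet differs from the normal diet and how each supplement differs from the high-fat diet alone. Arrays carry a number in their titles, taken here as a mouse number, and p-values measure the spread between these arrays.

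Values are on a log2 scale, so a difference of 1 is a doubling of signal, and the scale does not allow the level of one gene to be set against that of another. The 21 arrays had medians over all genes of 4.70 to 4.77. The mean of 9 adipocyte markers lay between 8.89 and 9.87 on every array. The mean of 8 epididymis duct markers lay between 2.79 and 3.42. ND mouse 9 stood apart: its mean correlation with the other ND arrays was 0.9757, against 0.9831 and 0.9835 for ND mice 6 and 8, and a fit that weights arrays by their fit gave it 0.208, where the other arrays received 0.457 to 3.51. The members' differences between HFD and ND are given with and without this array.

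The sequences just upstream of the start sites are shown for the regulator and for its known targets among the members, because the antioxidant response element through which NRF2 acts is a short motif in such regions. They are the 250 bases before a RefSeq start site on GRCm38.p6, in the direction of transcription. Capitals mark the core of the antioxidant response element, TGACNNNGC, and the AP-1 motif TGANTCA, to which Jun and Fos proteins bind. Both motifs were searched on both strands, and they can overlap.
Nfe2l2, chr2:75704664-75704913, minus strand: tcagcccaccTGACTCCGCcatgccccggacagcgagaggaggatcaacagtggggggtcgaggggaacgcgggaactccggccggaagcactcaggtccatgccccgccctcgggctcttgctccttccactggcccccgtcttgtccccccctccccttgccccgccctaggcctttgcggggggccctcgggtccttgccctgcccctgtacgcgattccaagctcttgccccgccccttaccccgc
Gclm, chr3:122245307-122245556, plus strand: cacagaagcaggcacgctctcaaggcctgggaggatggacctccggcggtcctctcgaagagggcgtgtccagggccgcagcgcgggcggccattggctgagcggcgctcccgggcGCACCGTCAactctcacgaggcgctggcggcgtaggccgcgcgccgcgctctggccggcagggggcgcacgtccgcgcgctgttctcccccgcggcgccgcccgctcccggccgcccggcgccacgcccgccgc
Srxn1, chr2:152105274-152105523, plus strand: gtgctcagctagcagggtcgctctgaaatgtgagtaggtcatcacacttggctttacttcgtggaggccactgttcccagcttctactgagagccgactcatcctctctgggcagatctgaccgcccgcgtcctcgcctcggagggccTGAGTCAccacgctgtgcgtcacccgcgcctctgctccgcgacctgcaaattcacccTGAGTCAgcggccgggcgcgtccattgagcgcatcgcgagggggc
Txnrd1, chr10:82858956-82859205, plus strand: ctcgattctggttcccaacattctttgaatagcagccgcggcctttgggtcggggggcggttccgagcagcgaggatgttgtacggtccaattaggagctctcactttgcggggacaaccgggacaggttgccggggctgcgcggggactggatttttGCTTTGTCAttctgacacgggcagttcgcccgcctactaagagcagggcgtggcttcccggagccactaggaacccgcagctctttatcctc

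Of the 7 measured members, the sequence table held upstream windows for 6, 8 windows in all, and Sod3 was not matched. The element core was found in windows of 3 members. In Nfe2l2 it began 240 bases before the start site, on the transcribed direction. In Gclm it lay on the opposite strand with its outermost base 134 bases before the start. In Txnrd1 it lay on the opposite strand, 92 bases before the start of the window shown, and the other Txnrd1 windows held none. The Srxn1 window held no match to TGACNNNGC and carried the AP-1 letters 102 and 45 bases before the start. The nearer AP-1 match is followed by gc, so these letters differ from that core only by G in place of C. Wider forms of the element were not searched. The Sod2 and Gpx3 windows held neither of the motifs searched. The element core occurs in a window of 11.5% of the 27025 genes in the table, and the AP-1 motif in one of 7.82%. A match is a run of letters and was not tested as a binding site.

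The regulator Nfe2l2 was higher on the high-fat diet. Its level was 7.65, 7.58 and 7.36 in ND mice 6, 8 and 9, and 8.15, 8.10 and 8.08 in HFD mice 4, 6 and 7. All HFD arrays lay above all ND arrays. The difference was 0.58 ± 0.13 log2 units (SE, n = 3 arrays per group, 95% interval 0.31 to 0.85), or 1.49-fold, with an adjusted p of 0.0086 in limma. It was 0.49 without ND mouse 9 (adjusted p = 0.0284). Nfe2l2 passed in all 15 settings tried for this comparison, with adjusted p between 0.00175 and 0.0459 and a change of 0.41 to 0.64.

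Txnrd1 encodes the cytosolic thioredoxin reductase, the selenoenzyme that uses NADPH to recharge thioredoxin. Its level was 6.94, 6.89 and 7.01 in the ND arrays and 7.49, 7.51 and 7.33 in the HFD arrays. The groups did not overlap, and the spread among the ND arrays was small (SD 0.060). Txnrd1 rose by 0.50 ± 0.12 (SE, n = 3 per group), 1.41-fold, with an adjusted p of 0.0131. The call was lost without HFD mouse 6, at a change of 0.46 (adjusted p = 0.0733), and after quantile normalization, at 0.34 (adjusted p = 0.0741). It held without ND mouse 9, at 0.53 (adjusted p = 0.0163).

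Gclm and Srxn1, both known NRF2 targets, had higher means on the high-fat diet but did not pass. Gclm encodes the modifier subunit of glutamate-cysteine ligase, which starts glutathione synthesis. Its level was 7.37, 7.27 and 6.78 in the ND arrays and 7.53, 7.45 and 7.48 in the HFD arrays. The groups did not overlap, but ND mouse 9 lay far below the other ND arrays. The difference was 0.35 ± 0.15 with an adjusted p of 0.152, and 0.16 without that array (adjusted p = 0.53). Srxn1 encodes sulfiredoxin, which repairs over-oxidized peroxiredoxins. Its level was 6.37, 6.01 and 6.75 in ND, the last from mouse 9, and 6.77, 6.78 and 6.52 in HFD. ND mouse 9 overlapped the HFD arrays here. The difference was 0.32 ± 0.16 with an adjusted p of 0.215. It was 0.50 without ND mouse 9, with an adjusted p of 0.0418.

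The enzymes that act directly on superoxide and hydrogen peroxide did not pass in this comparison. Sod2, the manganese superoxide dismutase of mitochondria, was at 9.21, 9.13 and 8.81 in ND and 9.25, 9.33 and 9.18 in HFD. The groups overlapped and the difference was 0.21 ± 0.16, with an adjusted p of 0.448. Sod3, the superoxide dismutase secreted into the extracellular space, was at 9.43, 9.48 and 8.97 in ND and 9.45, 9.22 and 9.46 in HFD. The difference was 0.08 ± 0.14 with an adjusted p of 0.755, and its 95% interval ran from -0.21 to 0.37. For both genes the lowest ND value was that of mouse 9. Without it the difference was 0.09 for Sod2 (adjusted p = 0.818) and changed sign to -0.08 for Sod3 (adjusted p = 0.768).

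Gpx3, the glutathione peroxidase secreted into plasma, showed the widest spread of the members in ND. Its level was 6.76, 6.65 and 5.47 in ND mice 6, 8 and 9, an SD of 0.717, and 6.31, 6.25 and 6.27 in the HFD arrays, an SD of 0.030. ND mouse 9 lay below every HFD array and the other ND arrays lay above them. The difference was -0.01 ± 0.22 with an adjusted p of 0.974. Leaving out that ND array gave -0.43, with an adjusted p of 0.0515.

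In all, 2 of the 7 members passed between HFD and ND, both upward, where 8.63% of all genes passed. Without HFD mouse 6 it was 1 of 7 against 2.26%, and without ND mouse 9 it was 3 of 7 against 8.38%. Non-overlapping groups were found for 3 of 7 members, against 28.7% of all genes. The median difference was 0.32 over the members and -0.04 over all genes. It was above 0 for 6 of 7 members and for 44.1% of all genes. Without ND mouse 9 the median over the members was 0.16 and 5 of 7 were above 0.

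**Figure D1:**
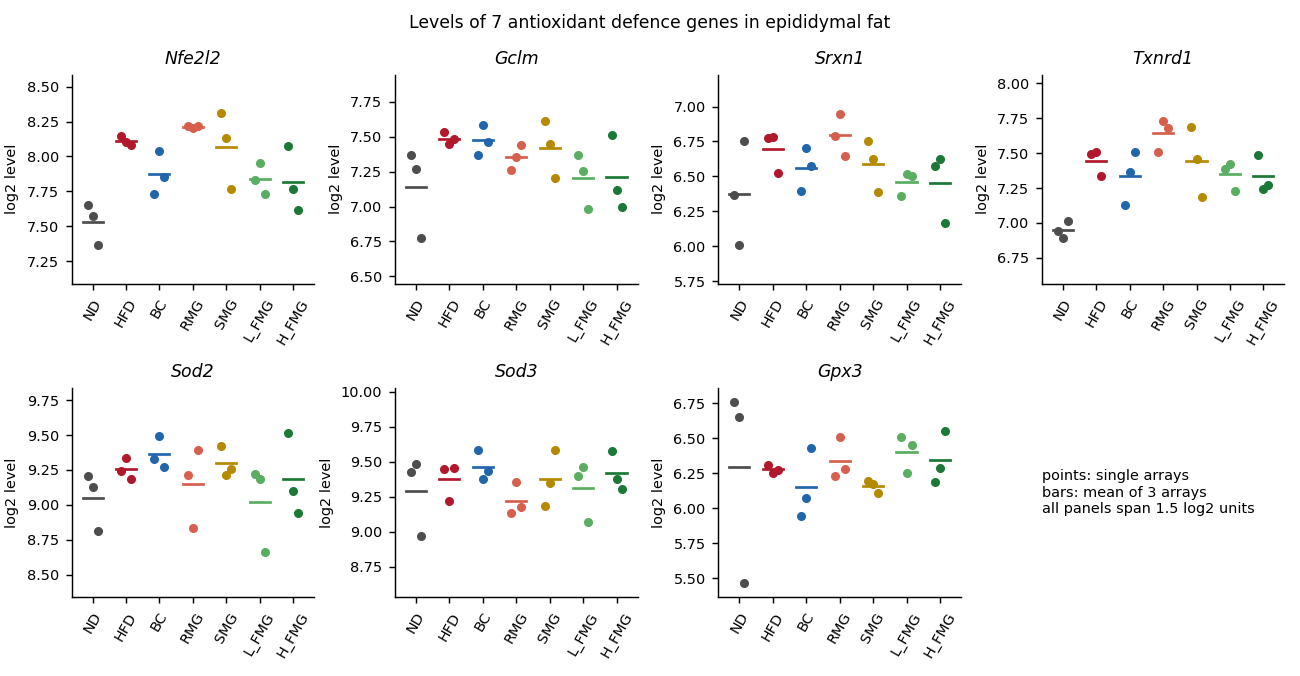
Level of each measured antioxidant gene (log2 units, vertical axis) on every array, by diet group on the horizontal axis. Points are arrays, 3 per group, and horizontal bars are group means. In the Nfe2l2 panel all HFD arrays (8.08 to 8.15) lie above all ND arrays (7.36 to 7.65), and in the Gpx3 panel ND mouse 9 sits alone at 5.47.

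The order of the diets was the same for Nfe2l2 and Srxn1. Txnrd1 differed from it only in having L_FMG above BC, at 7.35 against 7.33. The other members had other orders, and few neighbours in any order were apart. Of 42 neighbouring pairs of group means over the 7 members, 4 had arrays that did not overlap: RMG above HFD for Nfe2l2, RMG above HFD and H_FMG above ND for Txnrd1, and HFD above SMG for Gpx3. For Txnrd1 the lowest RMG array was at 7.511 and the highest HFD array at 7.510. The share of such pairs over all genes was not computed, so the count does not set the members apart. Nfe2l2 ran from 8.21 ± 0.008 (SD, n = 3) in RMG and 8.11 ± 0.034 in HFD through SMG at 8.07 ± 0.28, BC at 7.88 ± 0.15, L_FMG at 7.84 ± 0.11 and H_FMG at 7.82 ± 0.23 to ND at 7.53 ± 0.15. RMG had the highest mean of Nfe2l2, Srxn1 and Txnrd1, and ND the lowest mean of these and of Gclm. For Sod2 and Sod3 the highest mean was in BC, at 9.37 ± 0.11 and 9.46 ± 0.11, and the lowest in L_FMG at 9.02 ± 0.31 and in RMG at 9.22 ± 0.12. For Gpx3 the means ran from 6.15 ± 0.25 in BC to 6.41 ± 0.13 in L_FMG.

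A single test across the 7 groups called Nfe2l2 (adjusted p = 0.0199) and Txnrd1 (adjusted p = 0.0215), 2 of 7 members, against 6.47% of all genes. The other members had adjusted p between 0.467 and 0.952. Both calls stood near the threshold. That of Nfe2l2 was lost without ND mouse 8 or any single RMG array (adjusted p 0.05 to 0.0575). That of Txnrd1 was lost without ND mouse 6 or 8, or RMG mouse 9 or 10 (adjusted p 0.0607 to 0.0983). After quantile normalization 1 member passed. Across the 6 high-fat groups, with ND set aside, 0 members passed and 0.0492% of all genes did. Nfe2l2 came nearest, with an adjusted p of 0.297. By unadjusted p under 0.05, 1976 genes passed in that test.

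Against HFD, none of the 7 members passed in any of the 5 supplemented groups in limma. Few genes passed at all: 0% passed in BC, RMG, SMG and L_FMG, and 0.00615% in H_FMG, while the unadjusted p was under 0.05 for 841, 458, 300, 1407 and 2350 genes. In H_FMG the number of genes that passed, 1 with all arrays, was 257 without H_FMG mouse 3 and 566 with array weights, and still 0 members passed. The 5 comparisons share the same HFD arrays, so their values are not independent of each other.

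Nfe2l2 lay below every HFD array in 3 of these groups, as did 7.35% of all genes in BC, 10.1% in L_FMG and 11.4% in H_FMG. Nfe2l2 was at 7.73, 8.04 and 7.85 in BC, at 7.83, 7.96 and 7.73 in L_FMG, and at 8.07, 7.77 and 7.62 in H_FMG. The highest H_FMG array missed the lowest HFD array by little, 8.07 against 8.08. The differences from HFD were -0.24 ± 0.13 in BC (adjusted p = 0.92), -0.27 ± 0.13 in L_FMG (adjusted p = 0.571) and -0.29 ± 0.13 in H_FMG (adjusted p = 0.305). In RMG, at 8.22, 8.20 and 8.22, every array lay above HFD, with a difference of 0.10 ± 0.13 (adjusted p = 1). In SMG the arrays of mice 5, 8 and 12 were at 8.31, 8.13 and 7.77, and straddled HFD. The 95% intervals, which are not adjusted over genes, ran from -0.54 to -0.001 in L_FMG and from -0.56 to -0.02 in H_FMG, and so left out 0, while that in BC ran from -0.50 to 0.03. After adjustment over all genes none of these differences passed.

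Txnrd1 was at 7.51, 7.73 and 7.68 in RMG, where the lowest array was level with the highest HFD array to 2 decimals and the other arrays lay above it. The difference was 0.20 ± 0.12, with an adjusted p of 1. In the other supplemented groups the Txnrd1 arrays overlapped HFD and the differences ran from -0.11 in BC and H_FMG to -0.00 in SMG.

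Gclm and Srxn1 lay below HFD in all L_FMG arrays. Gclm was at 7.37, 7.25 and 6.98 there, a difference of -0.28 ± 0.15 (adjusted p = 0.594), and at 7.51, 7.12 and 6.996 in H_FMG, a difference of -0.28 ± 0.15 (adjusted p = 0.417). Srxn1 was at 6.36, 6.51 and 6.50 in L_FMG, a difference of -0.24 ± 0.16 (adjusted p = 0.672), and at 6.57, 6.62 and 6.17 in H_FMG, a difference of -0.24 ± 0.16 (adjusted p = 0.529). The 95% interval of the H_FMG difference ran from -0.59 to 0.04 for Gclm and from -0.57 to 0.09 for Srxn1. Groups that did not overlap HFD were found for 3 of 7 members in L_FMG, against 17.4% of all genes. In H_FMG it was 1 of 7, against 22.1%, and in RMG 3 of 7, against 11%. The 3 in RMG went both ways, with Nfe2l2 and Txnrd1 above HFD and Gclm below it. Some gaps were narrow. In RMG the lowest Txnrd1 array was at 7.511 against a highest HFD array of 7.510. The highest Gclm array in RMG was at 7.438 against a lowest HFD array of 7.446. In L_FMG the highest Srxn1 array was at 6.515 against a lowest HFD array of 6.524.

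The dismutases and Gpx3 did not pass against HFD either. Sod2 differed by between -0.23 ± 0.16 in L_FMG and 0.11 ± 0.16 in BC, and Sod3 by between -0.15 ± 0.14 in RMG and 0.09 ± 0.14 in BC. Gpx3 differed by between -0.13 ± 0.22 in BC and 0.13 ± 0.22 in L_FMG. Their adjusted p-values lay between 0.693 and 1.

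**Figure D2:**
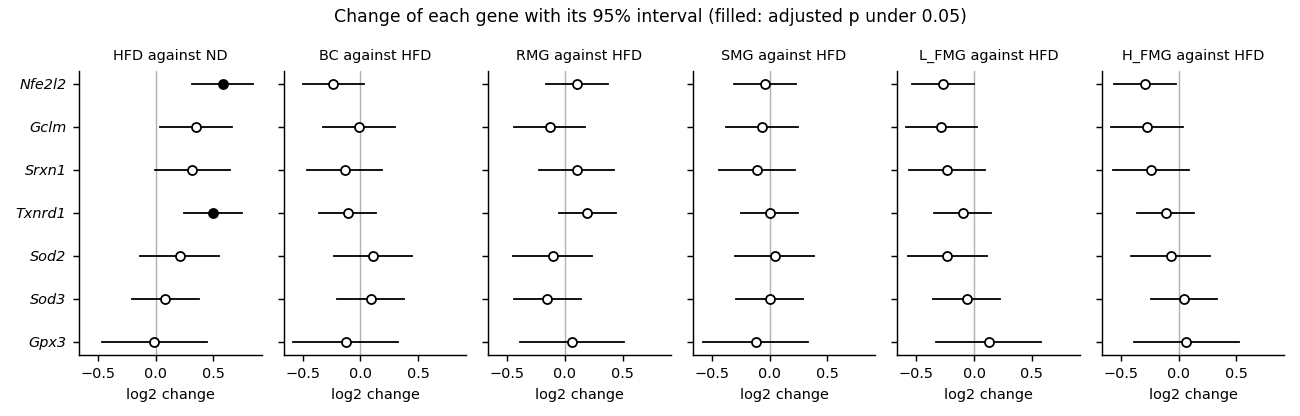
Difference in level of each antioxidant gene (log2 units, horizontal axis) between HFD and ND and between each supplemented group and HFD, with 95% intervals from limma as bars. Nfe2l2 and Txnrd1 lie at 0.58 and 0.50 in HFD against ND, and in the comparisons with HFD no member passed the test.

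Set against the normal diet, the same genes were higher in RMG and SMG. Nfe2l2 rose by 0.68 ± 0.13, 1.6-fold, in RMG (adjusted p = 0.00123) and by 0.54 ± 0.13, 1.45-fold, in SMG (adjusted p = 0.02). Txnrd1 rose by 0.69 ± 0.12, 1.61-fold, in RMG (adjusted p = 0.000638) and by 0.50 ± 0.12, 1.41-fold, in SMG (adjusted p = 0.0206). So 2 of 7 members passed in each, where 14.8% of all genes passed in RMG and 5.83% in SMG. The SMG count of 948 genes fell to 3 without SMG mouse 5 and 11 without SMG mouse 8, to 292 without ND mouse 8, and to 0 when only the arrays compared entered the fit, and was 1563 without SMG mouse 12. The RMG count of 2401 genes was 1585 without RMG mouse 4. The RMG calls of both genes held in every setting tried. The SMG calls of both were lost without SMG mouse 5 (adjusted p = 0.157 for Nfe2l2 and 0.163 for Txnrd1), without SMG mouse 8 (0.0986 and 0.0909) and without ND mouse 8 (0.0526 and 0.0694), and that of Nfe2l2 without ND mouse 9 (0.0527). They were also lost when only the arrays compared entered the fit (0.195 and 0.186). Srxn1 differed from ND by 0.42 ± 0.16 in RMG (adjusted p = 0.0802), and by 0.60 without ND mouse 9 (adjusted p = 0.00872).

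In the other supplemented groups no member passed against ND. Nfe2l2 differed by 0.34 ± 0.13 in BC (adjusted p = 0.208), 0.31 ± 0.13 in L_FMG (adjusted p = 0.316) and 0.29 ± 0.13 in H_FMG (adjusted p = 0.584). Txnrd1 differed by 0.38 ± 0.12 in BC (adjusted p = 0.139), 0.40 ± 0.12 in L_FMG (adjusted p = 0.181) and 0.38 ± 0.12 in H_FMG (adjusted p = 0.452), and its arrays lay above ND in all 3 groups. Of all genes, 0.111% passed in BC, 0.00615% in L_FMG and 0.00615% in H_FMG, and by unadjusted p under 0.05 it was 2454, 2089 and 1359 genes. These shares rest on ND mouse 9: without it the 18, 1 and 1 genes that passed became 372, 275 and 22, and array weights gave 629, 460 and 29. Txnrd1 passed with array weights in BC (0.42, adjusted p = 0.0399) and in L_FMG (0.46, adjusted p = 0.0357). All these comparisons share the ND arrays. Gpx3 did not pass against ND in any group with all arrays weighted equally. Without ND mouse 9 it differed by -0.56 in BC (adjusted p = 0.032) and by -0.55 in SMG (adjusted p = 0.0174), and with array weights by -0.43 in SMG (adjusted p = 0.0365).

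Dose and preparation made no called difference among the members. Between H_FMG and L_FMG the differences ran from -0.06 ± 0.22 for Gpx3 to 0.16 ± 0.16 for Sod2, with adjusted p of 0.998 or 0.999. The 95% interval for Nfe2l2 was -0.29 to 0.25, the range of dose differences these arrays leave possible. Between L_FMG and SMG, fermented and steamed grain at the same 0.3%, Sod2 differed by -0.28 ± 0.16 (adjusted p = 0.844) and Nfe2l2 by -0.23 ± 0.13 (adjusted p = 0.844). Between L_FMG and BC, Sod2 was at 9.22, 9.19 and 8.66 against 9.33, 9.49 and 9.27, all below, a difference of -0.34 ± 0.16 with an adjusted p of 0.999. Of all genes 0% passed in each of these 3 comparisons, and 636, 886 and 666 had an unadjusted p under 0.05.

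Because RMG lay above HFD in Nfe2l2 and 3 other groups below it, RMG was also set directly against those groups, a choice made after the levels were seen. Nfe2l2 was higher in RMG by 0.34 ± 0.13 than in BC (adjusted p = 0.344), by 0.37 ± 0.13 than in L_FMG (adjusted p = 0.148) and by 0.39 ± 0.13 than in H_FMG (adjusted p = 0.0694), with no overlap of arrays. Txnrd1 was higher by 0.31 ± 0.12 than in BC (adjusted p = 0.352), by 0.29 ± 0.12 than in L_FMG (adjusted p = 0.229) and by 0.31 ± 0.12 than in H_FMG (adjusted p = 0.134). No member passed, where of all genes 0% passed against BC (1753 at unadjusted p under 0.05), 0.314% against L_FMG and 7.19% against H_FMG.

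The wider pathway was read from lists that complete the members' roles, with Txn1 in the list of targets and in the thioredoxin list. The counts below stand beside 8.63% of all genes that passed between HFD and ND, 1063 higher and 340 lower. Of 9 measured genes that control NRF2, among 11 listed, 0 passed between HFD and ND. The nearest were the small Maf partner Maff at -0.28 ± 0.12 (adjusted p = 0.153), the repressor Bach1 at 0.24 ± 0.11 (adjusted p = 0.176) and Sqstm1, the autophagy receptor that binds KEAP1, at 0.21 ± 0.11 (adjusted p = 0.23). Keap1 was not analysed here. The median difference in this list was -0.09, against -0.04 over all genes.

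Of the other NRF2 target enzymes, 3 of 12 measured rose and 0 fell, among 20 listed. Cbr3, a carbonyl reductase, rose by 0.67 ± 0.16 (adjusted p = 0.0122). Txn1, the thioredoxin that Txnrd1 recharges, rose by 0.47 ± 0.11 (adjusted p = 0.0125). Akr1b8, an aldo-keto reductase, rose by 0.92 ± 0.28 (adjusted p = 0.0421). That is 3 of 12 beside 8.63% of all genes, and the median over the list was 0.07. Without ND mouse 9 Cbr3 and Txn1 passed upward and Aox1 downward. Cbr3 alone passed without HFD mouse 6, and Txn1 alone without HFD mouse 4. Akr1b8 did not pass in any fit that left out a single ND or HFD array. Cbr3 was dim, with means of 3.55 in ND and 4.22 in HFD, below the median of every array. Nqo1, Hmox1 and Gclc, much used as readouts of NRF2, were not analysed here.

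Among glutathione enzymes 2 rose and 2 fell of 14 measured, among 21 listed. Slc3a2, the heavy chain shared by several amino acid transporters including that for cystine, rose by 0.51 ± 0.10 (adjusted p = 0.00485), and the glutathione transferase Gsto1 rose by 0.59 ± 0.13 (adjusted p = 0.00927). The transferase Gsta3 fell by 0.98 ± 0.25 (adjusted p = 0.0209), and the microsomal Mgst3 fell by 0.65 ± 0.17 (adjusted p = 0.0213). The list thus moved in both directions, and its median was 0.01, or -0.11 without ND mouse 9, when 2 rose and 4 fell. Without HFD mouse 6, ND mouse 6 or ND mouse 8, 2 rose and 0 fell each time. Only Mgst3 fell without HFD mouse 4, and only Gsta3 without HFD mouse 7.

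In the thioredoxin and peroxiredoxin system 3 of 15 measured genes rose and 0 fell, among 21 listed. Glrx, the glutaredoxin that removes glutathione from protein thiols, rose most among the genes that passed in the list, by 1.25 ± 0.23 (adjusted p = 0.00427). Sesn1, a sestrin, rose by 0.79 ± 0.17 (adjusted p = 0.00826), and Txn1 is given above. The median was 0.03. Without ND mouse 9 the same 3 genes rose, 2 fell, and the median was -0.11. Without HFD mouse 6 Glrx alone passed. A list of the other superoxide dismutases, catalase and glutathione peroxidases also held selenoproteins of other kinds. Of its 11 measured genes, among 13 listed, 1 rose, a share near the 8.63% of all genes. That gene was Selenop, the plasma selenium carrier, by 0.34 ± 0.095 (adjusted p = 0.0293). None of the dismutases, catalase and peroxidases measured in the list passed, and the list median was -0.04. Selenop did not pass without ND mouse 8, nor without any single HFD mouse, 4, 6 or 7. Of 5 measured NADPH-supplying enzymes, among 11 listed, 0 passed. Idh1, the cytosolic isocitrate dehydrogenase, was nearest at 0.33 ± 0.13 (adjusted p = 0.105), and the median was 0.03.

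On the side of oxidant production, 3 of 8 measured genes of the NADPH oxidase family and its subunits rose and 0 fell, among 14 listed. The cytosolic subunits of the phagocyte enzyme, Ncf1 and Ncf4, rose by 0.84 ± 0.19 (adjusted p = 0.0104) and 0.90 ± 0.20 (adjusted p = 0.009), and the GTPase Rac2 by 0.99 ± 0.21 (adjusted p = 0.00624). These 3 genes are expressed mainly in blood-derived cells. The median was 0.13. Without ND mouse 9 the same 3 rose, Noxa1 fell and the median was 0.05, and without HFD mouse 6 Rac2 alone passed.

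No gene of these lists passed in any supplemented group against HFD. In H_FMG, of the genes named above, Glrx differed from HFD by -0.92 (adjusted p = 0.13), Akr1b8 by -0.91 (adjusted p = 0.16), Rac2 by -0.78 (adjusted p = 0.134) and Txn1 by -0.36 (adjusted p = 0.164). Named genes with differences above 0 there were Mgst3 at 0.40 (adjusted p = 0.278), Gsta3 at 0.23 (adjusted p = 0.745) and Maff at 0.22 (adjusted p = 0.422), among others.

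**Figure D3:**
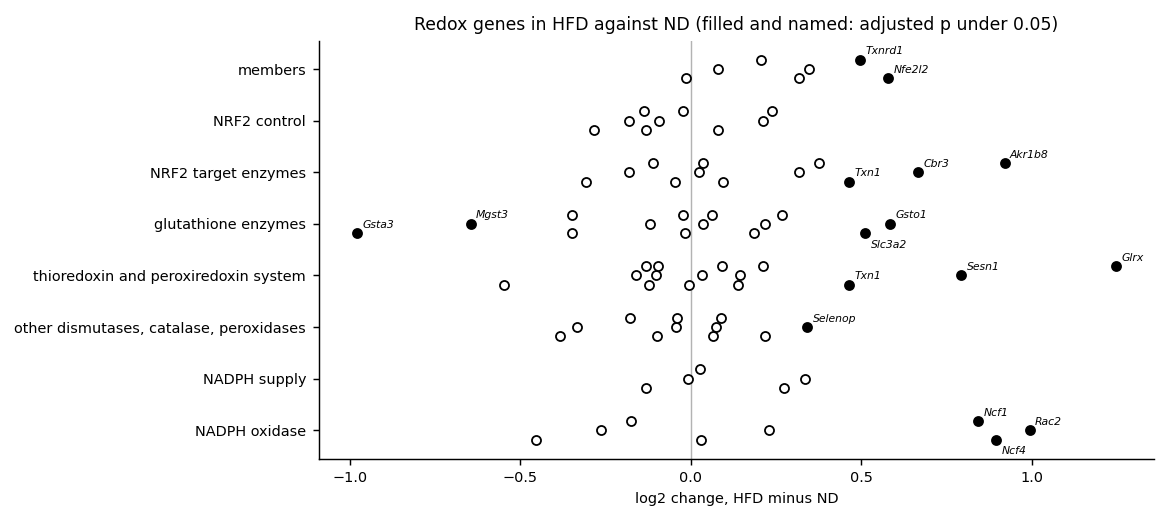
Difference between HFD and ND (log2 units, horizontal axis) of the measured antioxidant defence genes (top row) and of every measured gene in lists of NRF2 control, NRF2 targets, glutathione, thioredoxin, peroxide and superoxide, NADPH supply and NADPH oxidase genes, 1 row per list. Filled points passed the test and are named. Glrx stands at 1.25, the 3 NADPH oxidase genes that passed lie between 0.84 and 0.99, and Gsta3 lies at -0.98.

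Levels of cell type markers also differed in the same comparison. In whole tissue, fewer cells of a type and less RNA per cell cannot be told apart. Of 14 measured macrophage markers 13 rose between ND and HFD, led by Fcgr1, an antibody receptor (1.99 ± 0.31, adjusted p = 0.00309), and including Ms4a7 (1.92 ± 0.32, adjusted p = 0.00309) and the lysosomal protein Cd68 (1.60 ± 0.29, adjusted p = 0.00371). Their mean was 7.65 to 8.19 on the ND arrays and 8.86 to 9.04 on the HFD arrays. It was 8.24 to 8.78 in BC, 9.06 to 9.21 in RMG, 8.31 to 9.13 in SMG, 8.18 to 8.59 in L_FMG and 7.72 to 8.55 in H_FMG. Without HFD mouse 6, 8 of the 14 markers rose. No marker was at 0.

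Markers of other cell types moved as well. Of 9 lipid-associated macrophage markers 7 rose, and of 10 fibroblast and progenitor markers 6 rose, among them Lum by 1.40 ± 0.26 (adjusted p = 0.00394). Of 9 adipocyte markers 4 fell, among them Pck1 by 1.07 ± 0.28 (adjusted p = 0.0238). With ND mouse 9 left out it was 6 of 9. It was 1 without ND mouse 6 and 0 without ND mouse 8. Without HFD mice 4, 6 and 7 in turn it was 3, 0 and 2. Without HFD mouse 6, 3 of 10 fibroblast markers rose. The adipocyte mean was 9.36 to 9.87 in ND, 9.04 to 9.36 in HFD and 8.89 to 9.15 in RMG. Of 8 endothelial markers 1 fell, Vwf, of 8 epididymis duct markers 1 fell, Defb20, and of 8 mesothelial markers 0 passed. The part of cell makeup in the rise of Nfe2l2, Txnrd1 and the NADPH oxidase genes was not tested.

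Over the 21 arrays, Nfe2l2 followed the macrophage marker mean closely. Pearson r was 0.90 and Spearman rho 0.96, each with a raw permutation p of 1e-05, the smallest that 100000 resamples can give. Adjusted over 14 relations of members with marker means, p was 3.5e-05 for r and 7.0e-05 for rho. The r was 0.69 after each group's mean was subtracted, 0.90 without the 2 arrays farthest from the median and 0.96 without ND.

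Txnrd1 and Srxn1 had the next highest correlations with macrophage markers. Txnrd1 had r = 0.86 and rho = 0.89 (permutation p 1e-05 and 2.0e-05, adjusted 3.5e-05 and 7.0e-05), 0.72 after group means were subtracted and 0.78 without the 2 farthest arrays. Srxn1 had r = 0.80 and rho = 0.77 (permutation p 1e-05 and 9.0e-05, adjusted 3.5e-05 and 0.00021), 0.74 after group means and 0.74 without the 2 farthest. Gclm had r = 0.56 and rho = 0.53 (permutation p 0.00833 and 0.0161, adjusted 0.0167 and 0.0282), 0.37 after group means and 0.69 without the 2 farthest.

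The remaining members did not pass against the macrophage mean: Sod2 had r = 0.36 and rho = 0.45 (permutation p 0.105 and 0.0435, adjusted 0.163 and 0.0677), Sod3 r = -0.22 and rho = -0.31 (0.332 and 0.165, adjusted 0.358 and 0.193) and Gpx3 r = -0.26 and rho = -0.32 (0.252 and 0.161, adjusted 0.294 and 0.193).

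With the adipocyte mean the same genes ran the other way. Srxn1 had r = -0.84 and rho = -0.85 (permutation p 1e-05 for both, adjusted 3.5e-05 and 7.0e-05), and r stayed at -0.77 after group means and -0.82 without the 2 farthest arrays. Txnrd1 had r = -0.81 and rho = -0.84 (permutation p 5.0e-05 and 3.0e-05, adjusted 0.00014 and 8.4e-05), with -0.66 and -0.71 in those checks. Nfe2l2 had r = -0.75 and rho = -0.82 (permutation p 0.00012 and 2.0e-05, adjusted 0.00028 and 7.0e-05), with -0.34 and -0.69. Sod3 differed in sign, at r = 0.49 and rho = 0.53 (permutation p 0.0252 and 0.0151, adjusted 0.0441 and 0.0282), with 0.69 and 0.46. Gclm, Sod2 and Gpx3 did not pass, with r of -0.33, -0.11 and 0.27. Of the 14 relations 8 passed by Pearson r. The share of all genes that correlate as strongly with these means was not computed, so the count does not set the members apart. The arrays share diets, so the pooled values hold differences between groups, and no batch is given in the sources used here within which they could be recomputed.

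**Figure D4:**
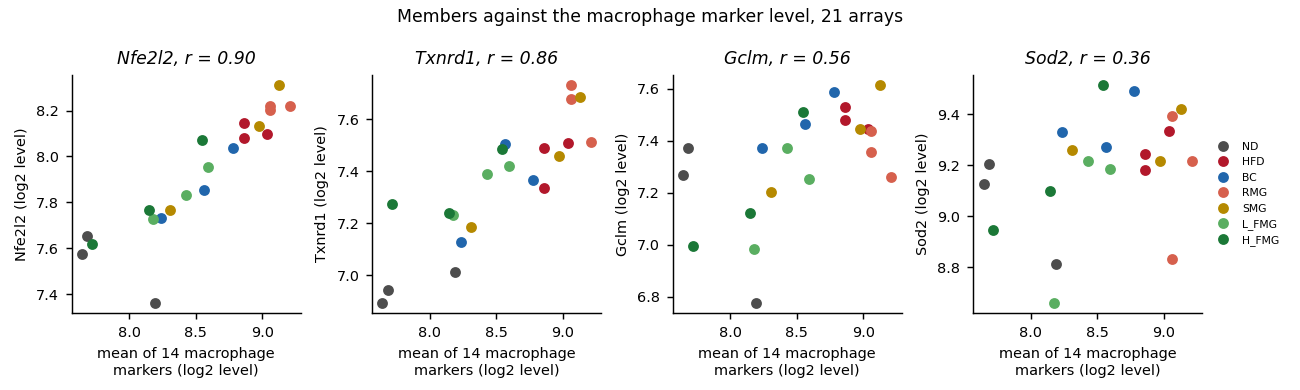
Level of Nfe2l2, Txnrd1, Gclm and Sod2 (log2 units, vertical axis) against the mean of 14 macrophage markers (log2 units, horizontal axis) on 21 arrays, with diet groups by colour. Nfe2l2 rises along the axis with r = 0.90, and ND arrays lie at the low end, between 7.65 and 8.19.

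Among the members themselves, 6 of 21 pairs passed by Pearson r, all positive. The share among pairs of other genes was not computed. Nfe2l2 and Txnrd1 had r = 0.88 and rho = 0.90 (permutation p 1e-05 for both, adjusted 0.00021 for both), 0.68 after group means and 0.85 without the 2 farthest arrays. Gclm and Sod2 had r = 0.79 and rho = 0.75 (permutation p 9.0e-05 and 0.00015, adjusted 0.000945 and 0.00157), 0.76 after group means and 0.66 without the 2 farthest. Nfe2l2 and Gclm had r = 0.74 and rho = 0.61 (permutation p 0.00014 and 0.00447, adjusted 0.00098 and 0.0188), 0.87 after group means and 0.65 without the 2 farthest.

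The other pairs that passed joined Srxn1 and Txnrd1 to the same set. Srxn1 and Txnrd1 had r = 0.67 and rho = 0.71 (permutation p 0.00071 and 0.00037, adjusted 0.00373 and 0.00259), 0.53 after group means and 0.60 without the 2 farthest. Nfe2l2 and Srxn1 had r = 0.62 and rho = 0.71 (permutation p 0.00207 and 0.00052, adjusted 0.00869 and 0.00273), 0.32 after group means and 0.83 without the 2 farthest. Gclm and Txnrd1 had r = 0.53 and rho = 0.49 (permutation p 0.013 and 0.0267, adjusted 0.0455 and 0.0701), so rho did not pass, and r was 0.42 without the 2 farthest. Sod3 and Gpx3 entered none of the 6 pairs, and all pairs ran from r = -0.42 to 0.88.

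The measured genes most like each member were taken as those with the highest Pearson r over the 21 arrays, a description with no test. For Nfe2l2 they were the lysosomal amino acid sensor Slc38a9 (r = 0.97), the lysosomal protease Ctsb (0.97) and Ly86, the partner of the RP105 receptor (0.97). Srxn1 was most like the immediate early factors Atf3 (0.90) and Egr2 (0.89) and the receptor Tnfrsf1b (0.89). For Txnrd1 they were the cytoskeletal protein Tln1 (0.94), the splicing factor Srsf2 (0.93) and Tnfaip2 (0.93). For Gclm they were Micos10 (0.94), the autophagy gene Atg12 (0.94) and the lysosomal channel Tmem175 (0.92).

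Sod2 was most like Gpd1, the cytosolic glycerol-3-phosphate dehydrogenase (0.90), Lpgat1 (0.86) and Psme4 (0.86). Sod3 was most like Reep5 (0.89), Grina (0.87) and Mmd (0.86), and Gpx3 like Tbxa2r (0.85), Podn (0.84) and Gpd2 (0.82).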

How the data were processed

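The authors deposited 1 log2 level per array feature for 21 arrays of epididymal fat, 3 in each of 7 groups. The scale was taken from the values (0.84 to 12.7). Steps by which they summarised and normalized the signals were not given in the sources used here. No batch is named there. Per the labels' protocols, Trizol was used for extraction, and sense cDNA was fragmented and given a biotin label. Of 24291 complete features, 17067 had 1 gene symbol in the platform annotation. The brightest stood for each gene, which left 16248 genes. The table is held in part, with few genes of chromosomes 7, 8, 9, X and Y and of the mitochondrial genome. Of the protein-coding genes of chromosome 6, 42% were measured. Genes not held were not analysed here.

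No further normalization was applied. The groups were compared with limma (version 3.58.1, R 4.3.3), each group having its own coefficient in a joint fit of the 21 arrays with an intensity trend. Two-sided p-values were adjusted over all genes by Benjamini-Hochberg, with a threshold of 0.05. The fit was tested on simulated data. Correlations used 100000 permutations of arrays and were adjusted within each family. Upstream sequences came from RefSeq (GRCm38.p6). The number of arrays limits the precision. Nothing in the labels says whether the arrays are of separate animals beyond the number in each title.

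The members and the lists were chosen with earlier results of these data known. Genes named were the members, the genes of each pathway list that passed in HFD against ND (up to 4, or the 3 smallest p where none passed), up to 3 of each marker list by p, and the 3 genes with the highest r to each member, without predicted gene models. The counts of the lists without single arrays, and the comparisons of RMG with BC, L_FMG and H_FMG, were added after seeing the data.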

Additional observations from a re-analysis of the deposited data

Results flagged for a closer look

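Nfe2l2 arrays lay on opposite sides of HFD in different supplemented groups. All 3 RMG arrays lay above all HFD arrays, while all arrays of BC, L_FMG and H_FMG lay below them. In H_FMG the highest array was at 8.072 and the lowest HFD array at 8.082. Of all genes, 6.35% lay above HFD in this way in RMG. Below HFD it was 7.35% in BC, 10.1% in L_FMG and 11.4% in H_FMG. The share of genes that do all of these together was not computed. The group means of RMG exceeded those of BC by 0.338, of L_FMG by 0.374 and of H_FMG by 0.394 log2 units. Set directly against each other in limma, with comparisons chosen after the levels were seen, these differences had adjusted p of 0.344, 0.148 and 0.0694, so none passed. The pattern was shared by marker means. The macrophage marker mean was 8.92 ± 0.10 (SD, n = 3) in HFD, 9.11 ± 0.09 in RMG, 8.53 ± 0.27 in BC, 8.40 ± 0.21 in L_FMG and 8.14 ± 0.41 in H_FMG. The fibroblast marker mean was 9.34 to 9.48 in HFD, 9.53 to 9.63 in RMG and at most 9.32 in BC, L_FMG and H_FMG. The part of these cell types in the difference was not tested.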

How the results depend on the processing

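Of 1470 alternative values for members and comparisons, 0 reversed a call, 14 lost one, 10 gained one, and 126 uncalled values changed sign. Quantile normalization left 1 member called in HFD against ND, 1 in SMG against ND and 1 across the 7 groups, in place of 2 each. Array weights called 1 member in BC against ND, 4 in SMG against ND, 1 in L_FMG against ND and 1 across the 6 high-fat groups. With the arrays compared alone in the fit, 0 were called in SMG against ND. Leaving out single arrays gave 1 to 3 members called in HFD against ND, 0 to 2 in SMG against ND, 0 to 1 in BC against ND and 0 to 2 across the 7 groups. With the mouse number as a replicate block, 0 members were called in SMG against ND. Of 18 pairs of arrays with the same number 2 correlated above 0.1 (range -0.30 to 0.18), so the numbers were not taken to pair the arrays. Between HFD and ND, the genes called were 1063 higher and 340 lower with all arrays as deposited, and 679 higher and 447 lower after quantile normalization. The causes of these changes were not tested.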
